A study of Mus musculus with 4 samples.

Results

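Genes for heparan sulfate and chondroitin sulfate proteoglycans were compared between mouse embryonic stem (ES) cells that lack SOCS3 and wildtype ES cells. The set was a list of 43 genes that encode enzymes of glycosaminoglycan synthesis and modification, and core proteins such as serglycin, the syndecans and the glypicans. Of these, 41 had a probe set with 1 gene symbol, among 18193 such genes in all, and 40 were bright enough to be tested, among 12732. For a gene with several probe sets, the brightest one on average stood for it. Xylt1 and Ndst1 were not analysed here, and Csgalnact1 lay below the filter on dim probe sets.

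The study profiled total RNA of ES cells on expression arrays, with 2 arrays of SOCS3-null cells and 2 of wildtype cells. SOCS3 restrains signals that cytokine receptors send by way of STAT3, and the labels also list leukemia inhibitory factor, SHP2, ERK1/2 and endoderm as keywords. The labels give no culture condition, clone, passage or targeted exon, so each genotype may be a single clone. Nothing says whether the 2 arrays of a genotype stand for separate cultures, and the p-values rest on array-to-array spread that may be purely technical.

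Proteoglycans are proteins that carry long, sulfated sugar chains on serine residues. The chains grow in the Golgi from a linker, are elongated as heparan sulfate or chondroitin sulfate, and are then sulfated at chosen positions with the donor PAPS. The pattern of sulfate groups decides which growth factors and matrix proteins a chain binds. In ES cells, heparan sulfate acts as a co-receptor for fibroblast growth factors, and basement membranes of the early endoderm are rich in proteoglycans.

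In SOCS3-null cells 14 of the 40 genes tested rose and 1 fell, while 25 did not pass the test. That is 35.0% higher and 2.50% lower, against 13.1% higher and 9.55% lower among all 12732 genes tested, of which 22.7% were called in either direction. The test was limma's two-sided one with a Benjamini-Hochberg adjusted p under 0.05 across all genes. Each change is on the log2(intensity + 16) scale, SOCS3-null minus wildtype, and is given with its standard error (SE). The median change was 0.33 over the 40 genes and 0.00 over all genes tested. In 23 of the 40 genes both SOCS3-null arrays lay above both wildtype arrays, or 57.5% against 32.3% of all genes. In 10 of the 40 they lay below, against 33.6% of all genes. With 2 arrays per genotype, groups that did not overlap were thus common among all genes. The listed genes were chosen with earlier results of these data known, and these shares describe those that passed the filter. Hs3st1, Chst15 and Hpse reached it only through the SOCS3-null arrays, and Gpc2 and Cspg4 only through the wildtype arrays. In RNA from whole cultures, fewer cells of a type and less RNA per cell cannot be told apart.

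**Figure D1:**
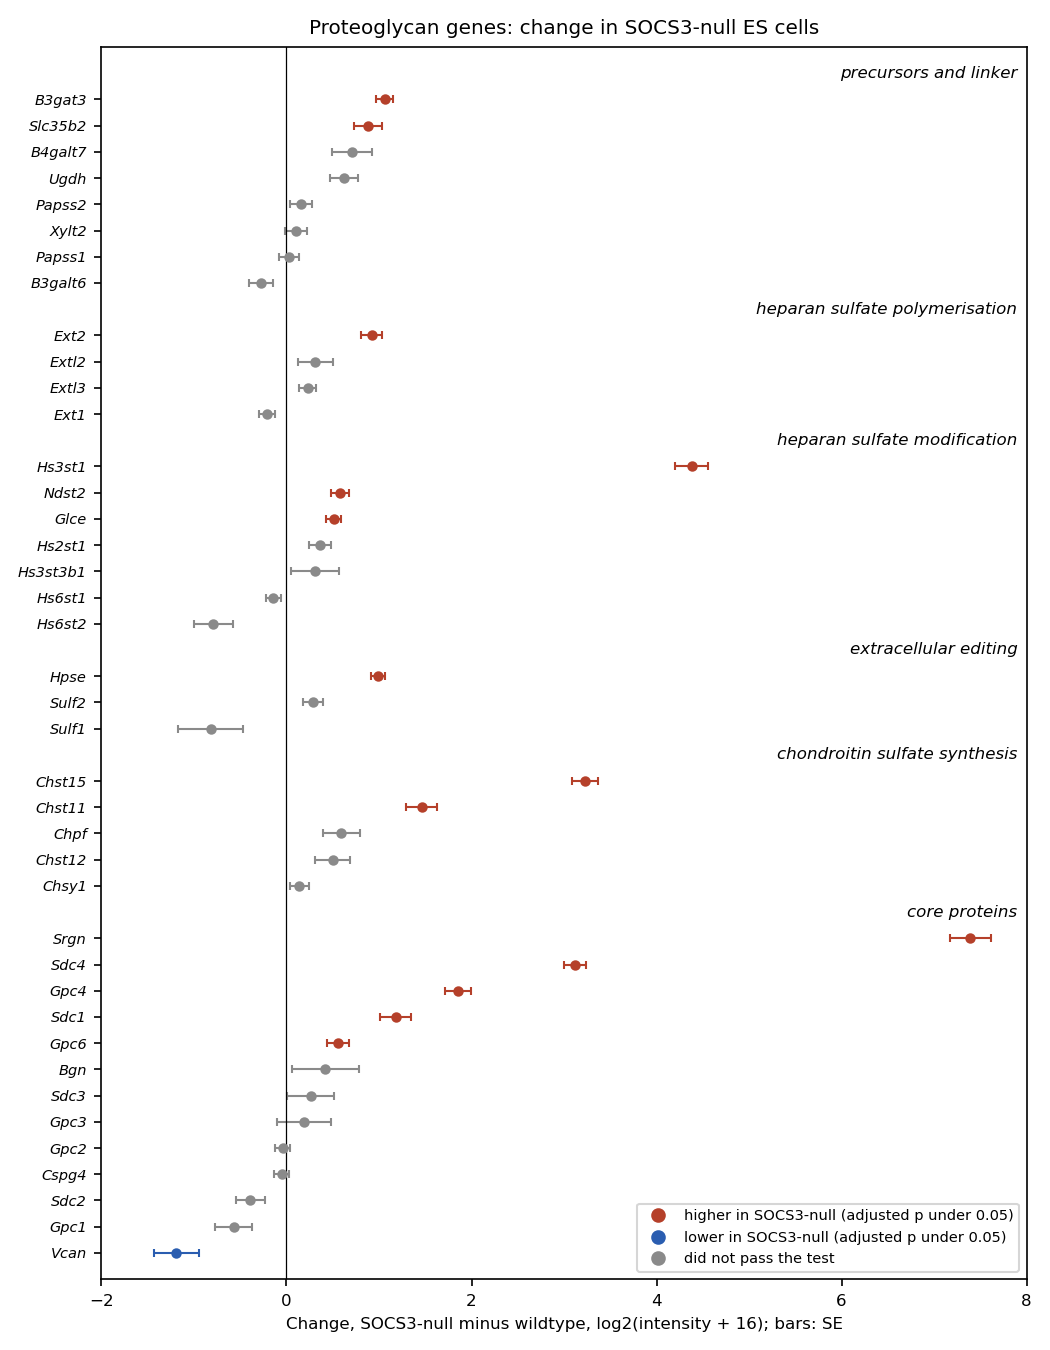
Change of each of the 40 genes tested, SOCS3-null minus wildtype on the log2(intensity + 16) scale (horizontal axis), grouped by role, with bars for the SE. The 14 genes that rose span 0.51 for Glce to 7.39 for Srgn, and Vcan, at -1.19, is the gene that fell.

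**Figure D2:**
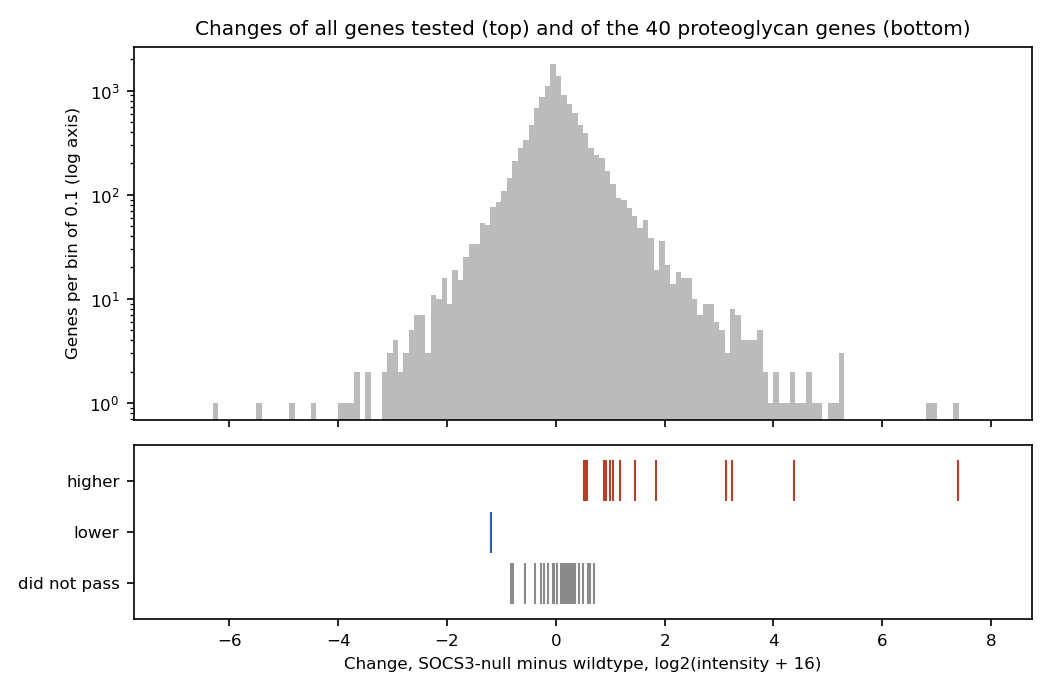
Histogram of the change over all 12732 genes tested (top, genes per bin on a log axis) and each proteoglycan gene as a tick (bottom), on the same log2(intensity + 16) axis. Srgn, at 7.39, sits at the right end of the distribution, and the 25 genes that did not pass lie between -0.82 and 0.71.

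The arrays were alike in distribution, with upper quartiles of 119.8 and 119.3 on the SOCS3-null arrays and 116.5 and 114.5 on the wildtype arrays. Across genes, log2 values correlated at 0.987 between the SOCS3-null arrays, 0.995 between the wildtype arrays and 0.938 to 0.948 across genotypes. The targeted transcript checked the labels: Socs3 was at 19.3 and 12.9 on the SOCS3-null arrays, against 3024 and 1884 on the wildtype arrays. Of 14 markers of primitive and extraembryonic endoderm, 14 rose, against 13.1% of all genes tested. Gata4, Sox17 and Foxa2 reached the filter only through the SOCS3-null arrays. The intensities of the 14 markers summed to 43389 and 45887 on the SOCS3-null arrays, against 1710 and 1704 on the wildtype arrays. The part of these markers in the proteoglycan results was not tested. Of 9 markers of undifferentiated ES cells, 1 fell (Sox2), against 9.55% of all genes tested. In 7 of the 9 both SOCS3-null arrays lay below both wildtype arrays, against 33.6% of all genes, and the median change was -0.36. The intensities of the 9 summed to 67820 and 64466 in SOCS3-null cells, against 79906 and 80062 in wildtype cells. Dppa5a, at 28762 to 30012 on the 4 arrays, held much of these sums. Of 7 trophoblast markers 5 were tested and 1 fell (Tfap2c), against 9.55% of all genes tested. The intensities of the 7 summed to 639 and 977 in SOCS3-null cells, against 1060 and 1289 in wildtype cells. Tfap2c held most of those sums, and with it left out, a choice made after the values were seen, they were 171 and 471 in SOCS3-null cells, against 105 and 89.2 in wildtype cells. Both SOCS3-null arrays lay above both wildtype arrays for 5 of the other 6 trophoblast markers, against 32.3% of all genes tested. Of these 5, Krt7, Plac1 and Hand1 did not pass the test, and Cdx2 and Elf5 lay below the filter, untested. Plac1 reached the filter only through the SOCS3-null arrays. Leaving out any single array left limma with 0 calls, so every call below needs all 4 arrays; 2928 to 4733 genes then had an unadjusted p under 0.05, among them 14 to 16 proteoglycan genes higher and 0 to 6 lower.

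The largest increases were in 4 genes with separate roles, of which Srgn and Hs3st1 were read on 1 probe set each. Srgn, Hs3st1, Chst15 and Sdc4 ranked 1, 16, 54 and 58 of 12732 genes by their increase at the pseudocount of 16. Hs3st1 and Chst15 were dim in wildtype cells, so their ranks depend on it, and at 64 the change of Sdc4 (2.89) exceeded that of Chst15 (1.95). They encode a core protein of secretory granules, an enzyme that finishes heparan sulfate, an enzyme that finishes chondroitin sulfate and a cell surface core protein. Their promoters are shown because these genes rose by the largest amounts, and the windows run from 250 bases before to 50 bases after an annotated start (RefSeq, GRCm38.p6). Capitals mark a GC box (GGGCGG) or a TATA box (TATAAA), searched on both strands. The windows were also searched for GATAA (GATA factors), for AACAAT (SOX factors), for TTCNNNGAA (STAT factors) and for CACGTG (an E-box), and none of these windows holds one. No matches overlapped. Srgn has windows at 2 starts, and of the 2 overlapping windows of Chst15 the upstream one is printed.
Srgn, upstream start, chr10:62527396-62527695, minus strand: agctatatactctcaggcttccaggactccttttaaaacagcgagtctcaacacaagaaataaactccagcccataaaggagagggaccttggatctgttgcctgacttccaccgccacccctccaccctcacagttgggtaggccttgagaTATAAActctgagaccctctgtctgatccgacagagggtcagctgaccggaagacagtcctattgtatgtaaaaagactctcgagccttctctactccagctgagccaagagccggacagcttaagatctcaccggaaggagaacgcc
Srgn, downstream start, chr10:62507708-62508007, minus strand: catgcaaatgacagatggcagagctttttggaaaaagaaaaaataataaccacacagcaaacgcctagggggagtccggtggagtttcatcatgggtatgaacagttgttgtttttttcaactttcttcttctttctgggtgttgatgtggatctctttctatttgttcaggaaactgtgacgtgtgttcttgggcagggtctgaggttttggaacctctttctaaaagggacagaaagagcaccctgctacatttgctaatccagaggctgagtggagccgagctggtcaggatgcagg
Hs3st1, chr5:39644582-39644881, minus strand: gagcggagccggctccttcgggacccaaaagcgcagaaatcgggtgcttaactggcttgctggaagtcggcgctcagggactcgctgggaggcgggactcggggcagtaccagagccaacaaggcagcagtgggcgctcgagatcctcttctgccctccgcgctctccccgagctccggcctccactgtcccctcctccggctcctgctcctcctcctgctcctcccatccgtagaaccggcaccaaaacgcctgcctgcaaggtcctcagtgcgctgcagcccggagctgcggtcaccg
Chst15, chr7:132317179-132317478, minus strand: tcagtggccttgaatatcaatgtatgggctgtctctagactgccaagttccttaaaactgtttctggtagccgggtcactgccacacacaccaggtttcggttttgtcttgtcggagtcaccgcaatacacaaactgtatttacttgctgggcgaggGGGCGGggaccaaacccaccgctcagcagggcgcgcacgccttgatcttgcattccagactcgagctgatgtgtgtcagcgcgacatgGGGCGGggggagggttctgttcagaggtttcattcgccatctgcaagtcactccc
Sdc4, chr2:164443139-164443438, minus strand: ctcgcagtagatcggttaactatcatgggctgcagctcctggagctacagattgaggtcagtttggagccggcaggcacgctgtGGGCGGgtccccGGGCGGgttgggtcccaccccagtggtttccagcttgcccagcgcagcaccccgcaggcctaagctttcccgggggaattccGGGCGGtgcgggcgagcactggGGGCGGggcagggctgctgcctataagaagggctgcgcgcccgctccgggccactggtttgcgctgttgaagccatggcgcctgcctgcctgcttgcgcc

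The Sdc4 window holds 4 GC boxes, the Chst15 window 2, and the Hs3st1 window and both Srgn windows none. A TATA box lies 98 bases before the upstream start of Srgn. CG dinucleotides number 8 and 4 in the Srgn windows, 24 in that of Hs3st1, 15 in that of Chst15 and 22 in that of Sdc4, and the median was 23 over 41 windows of 34 proteoglycan genes and 7 over 32851 windows of all genes. A GC box was found in 70.7% of the windows of proteoglycan genes and in 35.7% of all windows. The corresponding shares were 19.5% and 25.4% for GATAA, 7.32% and 10.7% for AACAAT, 0.00% and 8.30% for TTCNNNGAA, 7.32% and 7.15% for CACGTG, and 7.32% and 13.6% for TATAAA. The GC box share was 68.8% for the windows of the proteoglycan genes that were called. All windows include those of genes that were not tested here. A match to such letters is a description and not a binding site.

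Among the genes that supply precursors and build the linker, 2 of 8 tested rose and 0 fell. Of all genes tested, 13.1% rose and 9.55% fell. Slc35b2, which carries PAPS into the Golgi, had intensities of 207 and 167 on the SOCS3-null arrays, against 86.2 and 103 on the wildtype arrays. The groups did not overlap, and the change was 0.88 (SE 0.15, limma adjusted p = 0.0296). Its other probe set changed by 0.22 and did not pass, and the call was lost on the mean of both (0.55, limma adjusted p = 0.0752) and without the filter (0.0810). B3gat3, which adds the glucuronic acid that completes the linker, was at 193 and 177 in SOCS3-null cells, against 83.9 and 77.2 in wildtype cells. All SOCS3-null values were higher, with a change of 1.06 (SE 0.09, limma adjusted p = 0.00929). The other probe set of B3gat3 was dimmer, changed by 0.40 and did not pass over all probe sets (limma adjusted p = 0.0925). The mean of both changed by 0.73 and passed.

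The other linker and precursor genes did not pass. Ugdh, which makes UDP-glucuronic acid, was at 571 and 465 on the SOCS3-null arrays and 305 and 358 on the wildtype arrays (change 0.62, limma adjusted p = 0.0607). Its SOCS3-null arrays both lay above, as in 32.3% of all genes. B4galt7, the first galactosyltransferase of the linker, was at 45.7 and 66.4 in SOCS3-null cells and 22.3 and 33.8 in wildtype cells, a change of 0.71 (limma adjusted p = 0.0956), and its second probe set changed by -0.02. Ugdh and B4galt7 passed when the filter was set at the 60th percentile, with limma adjusted p of 0.0331 and 0.0449. B3galt6, the second galactosyltransferase, changed by -0.28. The xylosyltransferase Xylt2 differed by 0.10 and the PAPS synthases Papss1 and Papss2 by 0.03 and 0.16. Papss2 was dim on every array, from 8.43 to 14.4.

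Heparan sulfate is polymerised by a complex of EXT1 and EXT2. Of the 4 polymerisation genes 1 rose (Ext2), against 13.1% of all genes. Its intensities were 408 and 345 on the SOCS3-null arrays, against 193 and 189.5 on the wildtype arrays. The wildtype arrays lay close together and well below both others, and the change was 0.92 (SE 0.11, limma adjusted p = 0.0159). Ext1 was at 452 and 496 in SOCS3-null cells and 549 and 552 in wildtype cells, a change of -0.21 that did not pass (limma adjusted p = 0.175). The 2 subunit genes thus lay on opposite sides of 0, and the difference between their changes was not tested. Extl3, which adds the first glucosamine of heparan sulfate, differed by 0.23. Both its SOCS3-null arrays lay above both wildtype arrays, as in 32.3% of all genes. Extl2, a related transferase that acts on the linker, differed by 0.31 with overlap, and its second probe set by -0.25. Neither gene passed.

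Among 7 heparan sulfate modification genes tested, 3 rose and 0 fell, against 13.1% and 9.55% of all genes. The increase of Hs3st1 was far above that of the others. Its product adds the rare 3-O-sulfate that heparin-like chains need to bind antithrombin. Hs3st1 was at 401 and 546 on the SOCS3-null arrays, against 8.06 and 6.40 on the wildtype arrays, where it lay below the filter floor of 10.4. The group means were 473 ± 102 and 7.23 ± 1.17 (SD, n = 2 each). The change was 4.38 (SE 0.18, limma adjusted p = 0.00459), and because the wildtype level is dim it was 5.84 with a pseudocount of 1 and 2.90 with one of 64. Hs3st3b1, a 3-O-sulfotransferase with another preference, was at 75.5 and 123 in SOCS3-null cells and 86.1 and 65.0 in wildtype cells. Its groups overlapped, and the difference of 0.31 (SE 0.26) did not pass.

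The other increases in this group were small. Ndst2, which replaces acetyl with sulfate groups along the chain, was at 37.2 and 39.4 in SOCS3-null cells, against 18.4 and 22.5 in wildtype cells. The groups did not overlap, and the change was 0.58 (SE 0.10, limma adjusted p = 0.0293), or 0.88 and 0.28 with pseudocounts of 1 and 64. Without the filter its adjusted p was 0.0545. Glce, the epimerase that turns glucuronic into iduronic acid, was at 211 and 213 in SOCS3-null cells, against 139.9 and 149 in wildtype cells. Its arrays agreed closely within each genotype, with a change of 0.51 (SE 0.08, limma adjusted p = 0.0263). The call on Glce was lost with a trend in eBayes (0.0507) and on the mean of its probe sets (0.27, limma adjusted p = 0.0740), since its second probe set changed by 0.03.

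Sulfotransferases for the 2-O and 6-O positions did not pass. Hs2st1 was at 368 and 310.3 in SOCS3-null cells and 248 and 273 in wildtype cells (change 0.36, limma adjusted p = 0.121). Hs6st1 differed by -0.14. Hs6st2 was at 68.6 and 42.3 on the SOCS3-null arrays and 107 and 105 on the wildtype arrays, a change of -0.79 (SE 0.21, limma adjusted p = 0.0700). It passed with the filter at the 60th percentile (0.0292). The SOCS3-null values of Hs2st1 thus lay above the wildtype values, and those of both 6-O-sulfotransferases below. Of all genes tested, 32.3% lay above and 33.6% below in this way.

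**Figure D3:**
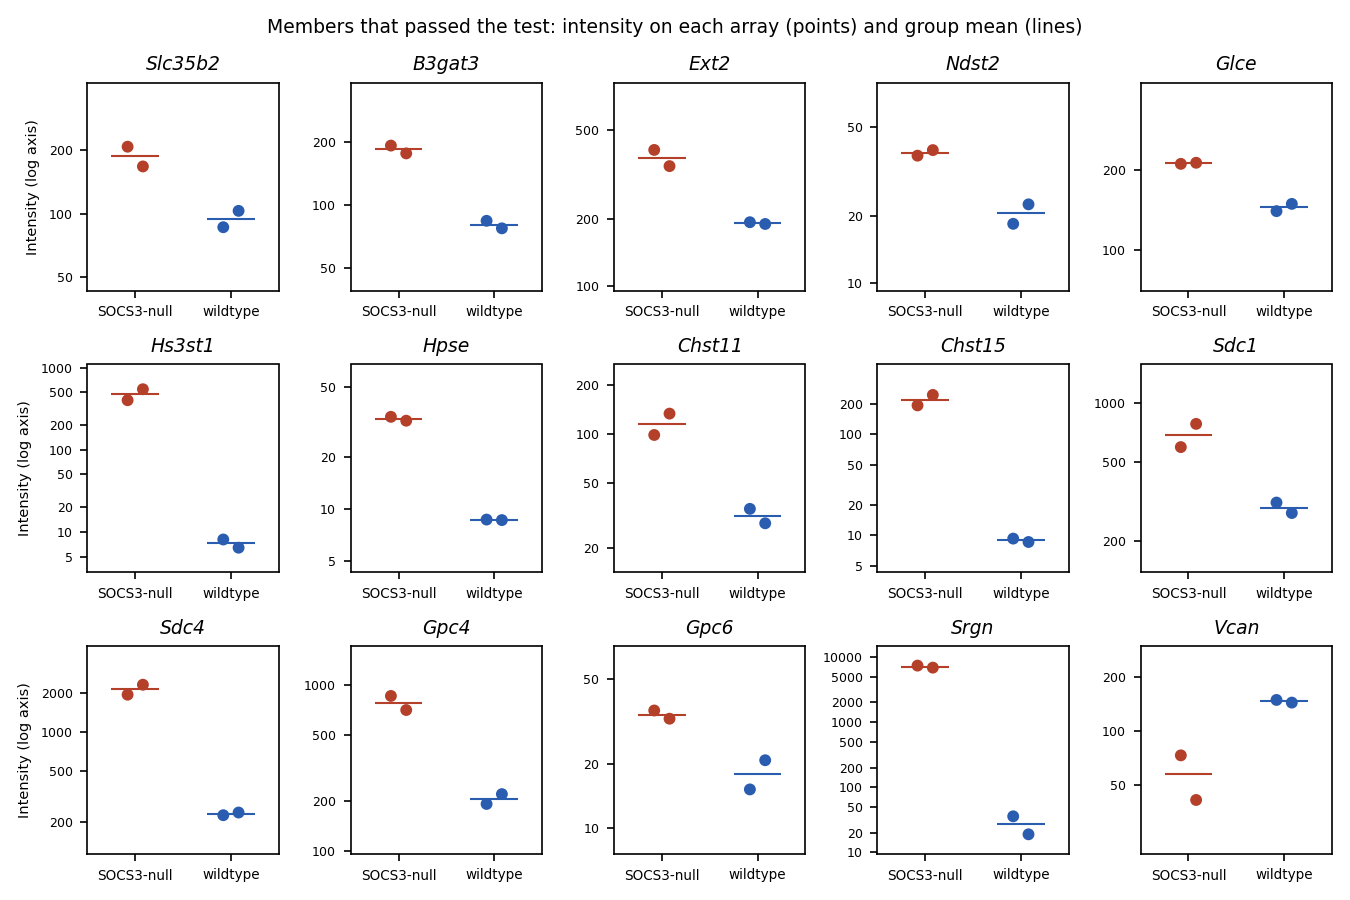
Intensity on each array (points) and group mean (lines) of the 15 genes that passed the test, with SOCS3-null arrays left of wildtype arrays in every panel and a log axis of its own per gene. In the 14 genes that rose both SOCS3-null points lie above both wildtype points, and for Vcan they lie below.

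Extracellular enzymes, encoded by 3 of the genes, edit heparan sulfate after it leaves the Golgi. Hpse, the heparanase that cuts the chain, was at 33.9 and 32.2 in SOCS3-null cells, against 8.69 and 8.63 in wildtype cells. The arrays of each genotype almost coincided, and the change was 0.99 (SE 0.08, limma adjusted p = 0.00809). Hpse was dim in wildtype cells, and pseudocounts of 1 and 64 gave 1.82 and 0.42. Sulf1 and Sulf2 remove 6-O-sulfate groups at the cell surface. Sulf1 was at 145 and 68.3 in SOCS3-null cells and 179.9 and 200 in wildtype cells, a change of -0.82 with a wide spread (SE 0.35) that did not pass. Sulf2 was at 1158 and 1068 in SOCS3-null cells and 978 and 841 in wildtype cells, a change of 0.29 (limma adjusted p = 0.158). Its 3 probe sets differed: a second one changed by 0.61 and passed over all probe sets (limma adjusted p = 0.0287), and the third changed by -0.11.

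Of 5 chondroitin sulfate genes tested, 2 rose, against 13.1% of all genes. In all 5 both SOCS3-null arrays lay above both wildtype arrays, against 32.3% of all genes. Among them Chst15 reached the filter only through the SOCS3-null arrays. Csgalnact1, whose groups overlapped, lay below the filter and is not counted. Chst15 encodes the sulfotransferase that adds a second sulfate to galactosamine and so makes chondroitin sulfate E. It was at 193 and 245 on the SOCS3-null arrays, against 9.28 and 8.59 on the wildtype arrays, or 219 ± 36.9 and 8.94 ± 0.493 (SD, n = 2 each). The change was 3.23 (SE 0.14, limma adjusted p = 0.00459), with 4.46 and 1.95 at pseudocounts of 1 and 64. A second probe set, at 107 and 134 in SOCS3-null cells and 10.6 and 11.5 in wildtype cells, changed by 2.33 and passed as well.

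Chst11, which sulfates the 4-O position of galactosamine, was at 98.4 and 133 in SOCS3-null cells, against 34.7 and 28.3 in wildtype cells. The change was 1.46 (SE 0.17, limma adjusted p = 0.0145), and it was 0.90 with a pseudocount of 64 and 0.82 on the mean of its probe sets, the second of which is dim. Without the filter its adjusted p was 0.0511. Chst12, the other 4-O-sulfotransferase tested, was at 221 and 158 in SOCS3-null cells and 117 and 138 in wildtype cells (change 0.50, limma adjusted p = 0.149). Chpf, a polymerising factor, differed by 0.59 and the synthase Chsy1 by 0.14, and neither passed. Csgalnact1, which starts the chain, was at 8.72 to 9.85 on the 4 arrays and was not tested.

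Core proteins gave 5 increases and 1 decrease among 13 genes tested, against 13.1% higher and 9.55% lower among all genes. Serglycin, the product of Srgn, packs proteases and other cargo into granules of blood cells and is also secreted by other cells. Srgn was at 7354 and 6845 on the SOCS3-null arrays, against 35.7 and 18.9 on the wildtype arrays. The wildtype arrays were dim, and the groups were far apart. The change was 7.39 (SE 0.22, limma adjusted p = 0.00430), the largest increase among all genes at this pseudocount, and 8.04 at a pseudocount of 1, where Cubn came first with 8.08. Of 13 markers of blood, mast and endothelial cells 8 were tested and 3 rose (Cd68, Cdh5 and Tek), against 13.1% of all genes. Cdh5 reached the filter only through the SOCS3-null arrays. Ptprc, the mast cell proteases Cpa3 and Mcpt4, Gzmb and Tal1 were at 5.08 to 8.40 on every array of either genotype, below the filter floor. The summed intensity of the 13 markers was 2111 and 1022 in SOCS3-null cells, against 835 and 1200 in wildtype cells. Lyz2 held much of it, and without Lyz2, left out after the values were seen, the sums were 684 and 574 in SOCS3-null cells, against 434 and 429.8 in wildtype cells. Much of that gap was Cd68, at 266 and 195 in SOCS3-null cells, against 101 and 90.4 in wildtype cells. Both SOCS3-null arrays lay above both wildtype arrays for 3 of these 12 markers, against 32.3% of all genes tested. The part of blood, mast or endothelial cells in the level of Srgn was not tested.

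The syndecans are membrane-spanning cores that bear mainly heparan sulfate. Sdc4, a syndecan of focal adhesions, was at 1946 and 2326 in SOCS3-null cells, against 225 and 236 in wildtype cells. Both SOCS3-null values lay far above, with a change of 3.12 (SE 0.12, limma adjusted p = 0.00441). Its second probe set gave less: 305 and 492 in SOCS3-null cells and 151 and 153 in wildtype cells, a change of 1.26 (SE 0.25) that did not pass over all probe sets (limma adjusted p = 0.0538). Sdc1, the syndecan of epithelia, was at 598 and 784 in SOCS3-null cells, against 313 and 277 in wildtype cells. The change was 1.18 (SE 0.17, limma adjusted p = 0.0213), and all 4 of its probe sets passed over all probe sets, with changes of 0.94 to 1.45. Without the filter the adjusted p of Sdc1 was 0.0666. Sdc2 was at 82.8 and 60.1 in SOCS3-null cells and 103 and 92.4 in wildtype cells, a difference of -0.39, and Sdc3 differed by 0.26 with overlapping groups. Neither Sdc2 nor Sdc3 passed.

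Glypicans are cores held in the membrane by a lipid anchor. Gpc4 was at 859.5 and 707 in SOCS3-null cells, against 192 and 220.1 in wildtype cells. The groups were well apart, the change was 1.85 (SE 0.14, limma adjusted p = 0.00790), and a second probe set changed by 1.64 and passed. Gpc3 lies next to Gpc4 on the X chromosome, with no other protein-coding gene between them in the RefSeq table. It was at 253 and 445 in SOCS3-null cells and 293 and 292 in wildtype cells. The SOCS3-null arrays of Gpc3 fell on either side of the wildtype arrays, and its difference of 0.19 (SE 0.29) did not pass.

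Gpc6 was dim, at 35.5 and 32.5 in SOCS3-null cells and 15.2 and 20.8 in wildtype cells. Its change of 0.56 (SE 0.12, limma adjusted p = 0.0457) was near the threshold and was lost with a pseudocount of 64 (0.26, limma adjusted p = 0.0668), without the filter (0.0959) and over all probe sets (0.0565), where 0 of its 4 tested probe sets passed. Gpc1 was at 47.9 and 75.2 in SOCS3-null cells and 96.3 and 98.8 in wildtype cells, a difference of -0.57 that did not pass (limma adjusted p = 0.124). Gpc2 was dim throughout, at 10.2 to 11.1.

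Vcan and Bgn encode secreted chondroitin sulfate proteoglycans of the matrix, and Cspg4 encodes a membrane one. Vcan was at 73.1 and 41.2 in SOCS3-null cells, against 149 and 144 in wildtype cells. The groups did not overlap, and the change was -1.19 (SE 0.24, limma adjusted p = 0.0424). That call was lost without the filter (limma adjusted p = 0.120), over all probe sets (0.0569) and on the mean of its probe sets (-0.78, limma adjusted p = 0.0858), and its second tested probe set changed by -0.36. Cspg4 was dim on every array and differed by -0.05.

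Bgn was at 1069 and 666 on the SOCS3-null arrays and 483 and 808 on the wildtype arrays. Its groups overlapped, and the difference of 0.42 (SE 0.36) did not pass. The spread followed the arrays: Bgn was higher on SOCS3-null replicate 1 than on replicate 2 and higher on wildtype replicate 2 than on replicate 1, each by over 0.5 on the log2 scale, which held for 1 of the 40 genes. Of 10 markers of fibroblasts and feeder cells, which include the proteoglycans Dcn and Lum, 10 were higher on SOCS3-null replicate 1 than on replicate 2, and 9 were higher on wildtype replicate 2 than on replicate 1. Their summed intensities were 4167 and 2189 in SOCS3-null cells and 1843 and 3114 in wildtype cells, and 0 of the 9 tested passed. Col1a2, a fibroblast collagen, was at 1290 and 823 in SOCS3-null cells and 677 and 1130.3 in wildtype cells. The share of all genes with these array patterns was not counted, so how common they are is not known. The part of fibroblast RNA in the values of Bgn was not tested.

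**Figure D4:**
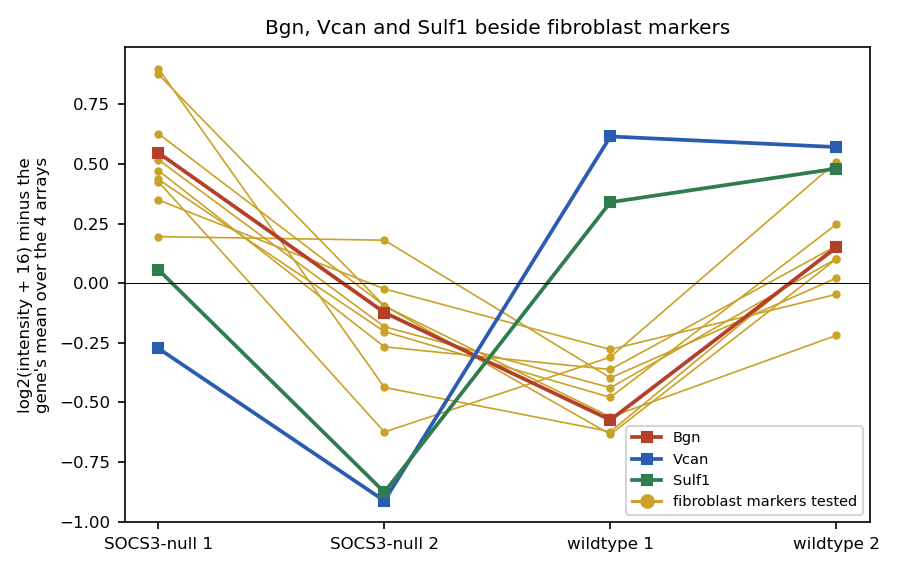
Log2(intensity + 16) on each array minus the gene's mean over the 4 arrays, for Bgn, Vcan and Sulf1 (squares) and the 9 fibroblast markers tested (thin lines). Bgn, at 1069 and 666 in SOCS3-null cells and 483 and 808 in wildtype cells, follows the marker lines, whereas Vcan and Sulf1 are lowest on SOCS3-null replicate 2 and higher on both wildtype arrays.

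Several genes could be read on more than 1 probe set. The 41 genes had 96 probe sets, of which 75 were tested, and 25 genes had more than 1 tested. Adjusted over all probe sets, every tested probe set passed for 3 of the 25 genes (Sdc1, Gpc4 and Chst15), some passed for 6 and none for 16. For 5 of the 25 the probe sets had changes of both signs. The matching shares over all genes with more than 1 probe set tested were not counted. Where a gene's probe sets disagreed in the call, the genes were B3gat3, Chst11, Glce, Sdc4, Slc35b2 and Sulf2, which were named after their values were seen.

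**Figure D5:**
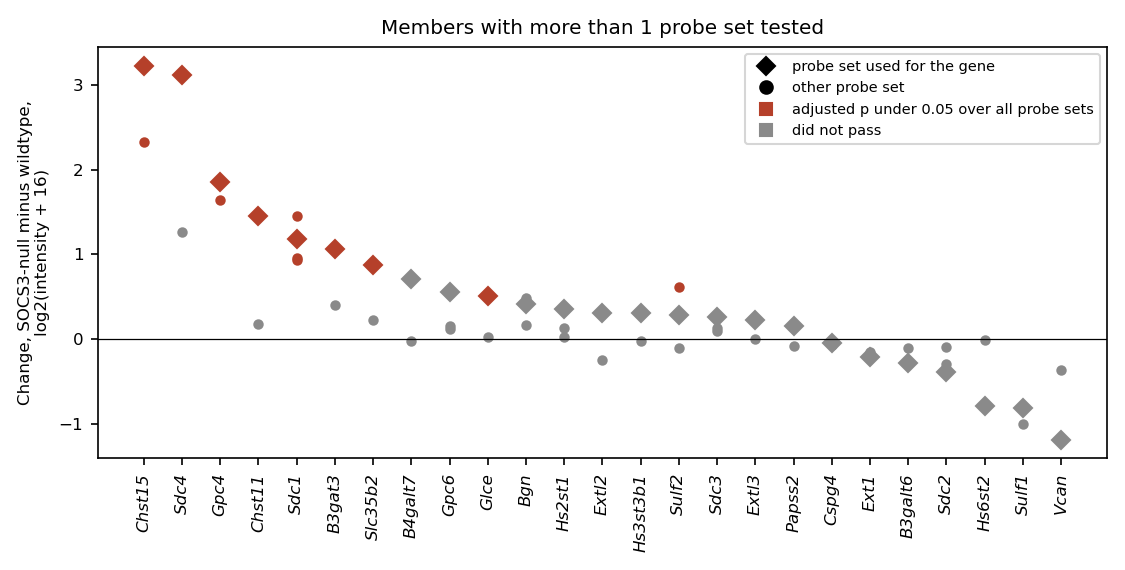
Change of every tested probe set, on the log2(intensity + 16) scale, for the 25 genes with more than 1. Diamonds are the probe sets used for the gene, and colour marks those that passed over all probe sets. The 4 probe sets of Sdc1 (0.94 to 1.45) and the pair of Gpc4 (1.64 and 1.85) lie close together, whereas those of Sdc4 lie at 3.12 and 1.26.

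Other genes of the pathway were read from 4 further lists. Of 31 further synthesis enzymes and transporters 18 were tested, of which 7 rose and 1 fell, against 13.1% and 9.55% of all genes. Slc26a2, which takes up inorganic sulfate, was at 410.4 and 334 in SOCS3-null cells, against 111 and 118 in wildtype cells, a change of 1.57 (SE 0.13, limma adjusted p = 0.00886). Chpf2, a further chondroitin polymerising factor, and Chst14, a sulfotransferase of dermatan sulfate, rose by 0.93 and 0.85, or by 0.52 and 0.44 with a pseudocount of 64. Named after their values were seen, Slc35b3, the second PAPS transporter, rose by 0.76 and Slc35d1, which carries UDP-sugars, by 0.94. Bpnt1, a phosphatase that clears the by-product of PAPS, fell: it was at 236 and 211 in SOCS3-null cells, against 452 and 489.8 in wildtype cells, a change of -1.02 (SE 0.10, limma adjusted p = 0.0107). The median change of this list was 0.41.

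Of 12 genes of lysosomal glycosaminoglycan breakdown 1 rose, 0 fell and 11 did not pass, with a median of 0.31. Among all genes tested, 13.1% rose and 9.55% fell. Hexa, a subunit of beta-hexosaminidase, rose by 1.54 (SE 0.10, limma adjusted p = 0.00702), at 1343 and 1206 in SOCS3-null cells, against 411 and 446 in wildtype cells. Hgsnat, Galns and Glb1 differed by 0.89, 0.67 and 0.60 without passing. Of 20 further core proteins 2 rose and 2 fell, against the same 13.1% and 9.55% of all genes, and the median was -0.06. Hspg2, which encodes perlecan of the basement membrane, was at 902 and 839 in SOCS3-null cells, against 124 and 179 in wildtype cells, and rose by 2.42 (SE 0.19). Tgfbr3, the TGF-beta co-receptor betaglycan, was at 145 and 192 in SOCS3-null cells, against 18.6 and 21.4 in wildtype cells, and rose by 2.35 (SE 0.16), or by 1.46 with a pseudocount of 64 and 1.28 on the mean of its probe sets. Col18a1, which encodes a collagen of basement membranes, fell by 1.85 on the log2 scale. Ncan, a proteoglycan of the nervous system, was at 10.6 and 9.46 in SOCS3-null cells, against 18.8 and 22.5 in wildtype cells, and reached the filter only through the wildtype arrays. Its change of -0.49 (limma adjusted p = 0.0382) was lost with a pseudocount of 64 (-0.19, limma adjusted p = 0.0811), without the filter (0.0628) and with the replicate block (0.0876).

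Hyaluronan is made without a core protein. Of 7 genes for its synthesis, binding and breakdown 1 rose and 0 fell, against 13.1% and 9.55% of all genes. Cemip, which takes part in hyaluronan breakdown, was at 150.2 and 245 in SOCS3-null cells, against 22.5 and 30.1 in wildtype cells. The groups did not overlap, and the change was 2.31 (SE 0.26, limma adjusted p = 0.0139), with a limma adjusted p of 0.0539 without the filter. It was 1.51 with a pseudocount of 64 and 1.48 on the mean of the probe sets of Cemip. The hyaluronan synthase Has2 differed by -0.12 and the binding proteins Tnfaip6 and Habp4 by -0.18 and -0.05, none of which passed.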

How the data were processed

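Total RNA from ES cells was measured on 4 arrays, 2 SOCS3-null and 2 wildtype, grouped by the submitters' labels. The authors deposited a linear intensity for each of 45101 probe sets. How they summarised and normalized it was not given in the sources used here. Since the arrays had nearly equal distributions, the values were not normalized again. No detection calls were used, and the number of arrays limits the precision.

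The 64 control probe sets were left out. Gene symbols came from a platform annotation and were checked against a RefSeq table of GRCm38.p6: 34945 probe sets had 1 symbol, 932 had several, 9160 had none, and 34741 matched by gene ID. Probe sets whose mean log2(intensity + 16) reached the 40th percentile were kept, and the one with the highest mean stood for its gene. The pseudocount of 16 understates changes of dim genes. All 12732 genes were fitted together with limma 3.58.1 in R 4.3.3 (lmFit, eBayes, genotype as the only term), with Benjamini-Hochberg adjustment over all of them. The procedure was run on simulated data with known changes and independent noise, to check the estimated changes. Such data cannot show whether the spread between these arrays is only technical.

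The members, the gene lists and the tests were chosen with earlier results of these data known. All members are named, with the 4 genes of smallest p in each further list. The fit was repeated without the filter or with it at the 60th percentile, with pseudocounts of 1 and 64, after median centring or quantile normalization, with eBayes trended or robust and trended, and with a block for the replicate number. It was also repeated on averaged probe sets, on the one of highest linear mean, on all probe sets, and without each array. Promoters came from RefSeq (GRCm38.p6), with 34 of the 43 genes matched. Figures were drawn with matplotlib 3.10.9.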

Additional observations from a re-analysis of the deposited data

How the results depend on the processing

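Of 16 alternatives, 12 kept all arrays. The 15 genes called kept their direction in every alternative. Since the groups of these genes did not overlap, leaving out an array could not have changed the direction. The other alternatives used the same arrays. Genes called were 1631 without the filter and 1914 with the replicate number as a block, against 2888, and 0 with any 1 array left out. Proteoglycan genes called higher numbered 9 without the filter, 11 with the replicate block or the mean of probe sets and 13 or 14 in the other alternatives that kept all arrays. Those called lower numbered 0 without the filter, 0 on the mean of probe sets, 0 over all probe sets and 2 under the 60th percentile filter, where Hs6st2 joined Vcan while the dim Gpc6, Hpse and Ndst2 were no longer tested. With an array left out both counts were 0; such a fit has 1 array in a genotype, which is assumed to vary like the other genotype. The labels do not tie equal replicate numbers together, and the deviations of same-numbered arrays correlated at -0.12. Under the replicate block Slc35b2, Ndst2, Glce and Gpc6 did not pass and B4galt7 did. With the numbers crossed, an alternative chosen after seeing the data, 2817 genes, 15 proteoglycan genes higher and 1 lower were called. Of the 25 uncalled genes 3 changed sign: Papss1 (-0.02 with quantile normalization, -0.07 to 0.14 with an array left out), Sdc3 (-0.03 to 0.55) and Gpc3 (-0.20 to 0.58), as did Habp4 (-0.22 to 0.11). The causes were not tested. Changes of genes dim in wildtype cells depend on the pseudocount.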
